A study of Mus musculus with 6 samples.

Results

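The prostaglandin genes described here are 10 genes of prostaglandin synthesis, reception and breakdown: Pla2g4a, Ptgs1, Ptgs2, Ptges, Ptgis, Ptger1, Ptger2, Ptger3, Ptger4 and Hpgd. Each was read by the probe sets whose single gene symbol in the platform annotation was its own, which gave 16 probe sets for 9 genes, of 45037 probe sets and 18193 genes tested. Ptgs1 was not analysed here. Of the 9 genes, 6 had more than 1 probe set and 3 had 1.

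RNA came from SVI cells, a conditionally immortalized line of mouse podocytes, the epithelial cells that cover the capillaries of the kidney's filter. Stretched cells underwent 3 days of cyclic biaxial stretch, at 0.5 Hz and up to 5% linear strain, and unstretched cells were not stretched. Both groups had been differentiated for 1 to 2 weeks at 38 °C in RPMI medium with 10% fetal bovine serum, and each had 3 Affymetrix arrays. The cells are 1 immortalized line in culture, without the capillary, the neighbouring cells or the blood flow of a glomerulus.

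Prostaglandins are short-lived lipid signals made from arachidonic acid, which cytosolic phospholipase A2 frees from membranes. A cyclooxygenase turns it into prostaglandin H2, and terminal synthases make prostaglandin E2, prostacyclin and other prostanoids from that. Prostaglandin E2 acts on the receptors EP1 to EP4, of which EP2 and EP4 raise cyclic AMP, EP3 mainly lowers it and EP1 raises calcium. In the kidney they act on blood flow and salt handling, and podocytes are among the cells that respond to them.

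Of the 9 genes, Ptger4, which encodes EP4, rose in stretched cells, 0 fell and 8 did not pass the threshold, a limma p adjusted by Benjamini-Hochberg over all 18193 genes under 0.05. Each gene was represented by its brightest probe set in that count. Over all genes 14.7% passed, 7.98% as higher and 6.76% as lower. The median log2 change of the 9 genes was 0.06, against -0.02 over all genes. With every probe set tested on its own, 2 of the 16 rose, 1 of Ptger4 and 1 of Ptgs2, the inducible cyclooxygenase COX-2. A single probe set, of Ptger1, fell. Over all 45037 probe sets 11.0% passed, 6.47% as higher and 4.51% as lower. The values of the 2 groups did not overlap in 3 of the 9 genes, 2 higher and 1 lower, where 32.6% of all genes did not (16.0% higher, 16.6% lower). The same held for 8 of the 16 probe sets, 4 in each direction, where 29.5% of all probe sets did not overlap (14.2% higher, 15.3% lower). Less RNA per cell and fewer cells with the transcript cannot be told apart in these pooled cultures. The series mentions 3 independent batches, but no label ties an array to a batch or a culture. The p-values therefore measure how these arrays vary, and that variation may be technical.

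**Figure D1:**
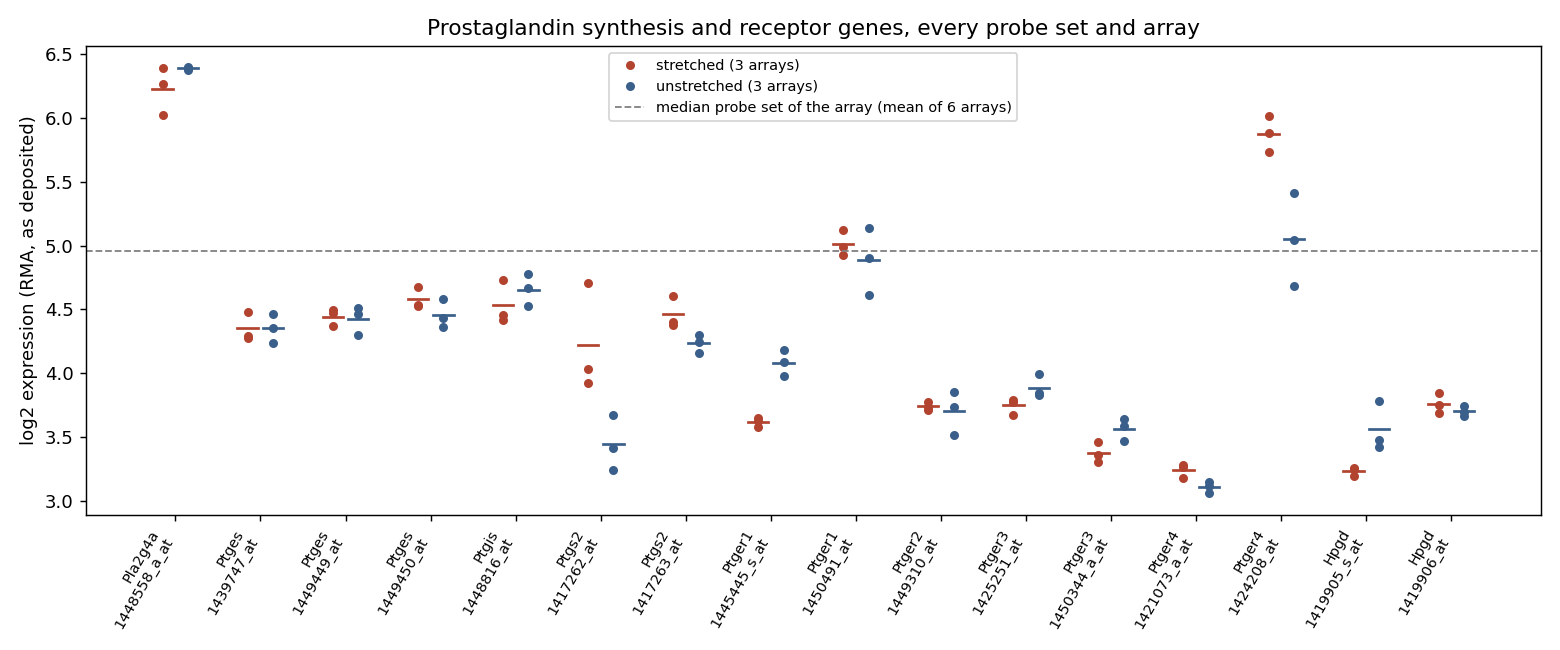
Log2 expression of each of the 16 probe sets of the 9 genes on the 3 stretched arrays (left of each pair) and the 3 unstretched arrays (right), with bars at the group means and a dashed line at the median probe set. The Ptger4 probe set 1424208_at lies between 5.73 and 6.02 in stretched cells and between 4.69 and 5.41 in unstretched cells, while most other probe sets lie below the dashed line.

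Most of these genes gave a low signal. On the gene scale, the median gene lay between 5.72 and 5.75 on stretched arrays and between 5.74 and 5.75 on unstretched arrays, as log2 values. Pla2g4a alone exceeded the median gene on all 6 arrays, 7 genes were below it on every array, and Ptger4 was above it on the 3 stretched arrays. Relative to the median gene, Pla2g4a stood 0.50 higher in stretched and 0.65 higher in unstretched cells, as log2 differences. Ptger4 stood 0.15 above the median gene in stretched cells and had a difference of -0.70 in unstretched cells. The other 7 genes had differences of -1.99 to -0.72 in stretched and -2.04 to -0.86 in unstretched cells, with Ptger2, Hpgd and Ptger3 lowest. Probe sets differ in how strongly they bind their target, so this order is one of signal and not of transcript abundance. Detection calls were not used here, so a low value may be background.

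**Figure D2:**
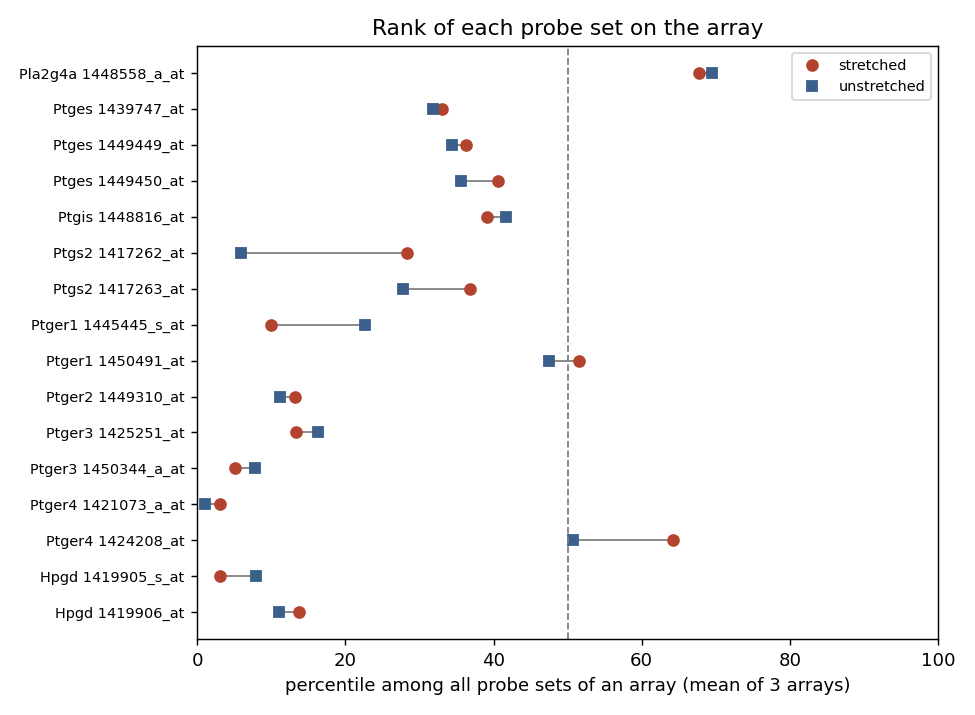
Rank of each probe set among all probe sets of an array, as a percentile averaged over 3 arrays, in stretched (circles) and unstretched cells (squares), with a dashed line at the median. The Ptgs2 probe set 1417262_at had percentile 28.3 in stretched and 5.88 in unstretched cells, and the Ptger4 probe set 1424208_at had 64.2 and 50.8 in the same order.

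Pla2g4a encodes cytosolic phospholipase A2 alpha, which releases arachidonic acid. Its single probe set, 1448558_a_at, read 6.27, 6.03 and 6.39 in stretched cells and 6.40, 6.39 and 6.38 in unstretched cells. The groups overlapped. Stretched minus unstretched gave -0.16 on the log2 scale, with an SE of 0.10 and a 95% interval of -0.39 to 0.07 (limma adjusted p = 0.389). The unstretched arrays hardly differed from each other (SD 0.01, n = 3), whereas the stretched ones spread more widely (SD 0.18, n = 3).

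Ptgs2 encodes the inducible cyclooxygenase and lies next to Pla2g4a on chromosome 1, with 0 protein-coding genes between them in the RefSeq table. Its probe set 1417262_at read 4.71, 3.92 and 4.03 in stretched cells and 3.24, 3.41 and 3.67 in unstretched cells. All stretched values were higher, and stretched replicate 1 stood well above the other two. The probe set rose by 0.78 on the log2 scale (SE 0.19, 95% interval 0.35 to 1.20, limma adjusted p = 0.0273), a 1.71-fold higher value. The call ended without stretched replicate 1 (log2 change 0.53, adjusted p = 0.0549), without unstretched replicate 1 (0.68, adjusted p = 0.0948) and without unstretched replicate 2 (0.76, adjusted p = 0.0842).

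The second Ptgs2 probe set, 1417263_at, is brighter and therefore stood for the gene. It read 4.38, 4.60 and 4.40 in stretched cells and 4.30, 4.24 and 4.16 in unstretched cells. The groups did not overlap, but the change did not pass (log2 change 0.23, SE 0.09, limma adjusted p = 0.135 in the gene fit and 0.168 in the fit of every probe set). With the probe sets of each gene averaged, Ptgs2 had a log2 change of 0.50 and passed (limma adjusted p = 0.00825). The change of 1417263_at minus that of 1417262_at was -0.55 (SE 0.34), and the array-wise differences overlapped (two-sided exact permutation p = 0.2). Whether Ptgs2 is called thus depends on the probe set.

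Ptges encodes microsomal prostaglandin E synthase-1, which often acts together with COX-2. Its 3 probe sets had log2 changes of 0.00 (1439747_at), 0.02 (1449449_at) and 0.12 (1449450_at), with adjusted p-values of 0.997, 0.925 and 0.478 in limma. Their values ran from 4.28 to 4.68 in stretched and from 4.23 to 4.58 in unstretched cells, and the groups overlapped in all 3. The 95% intervals of these changes lay between -0.22 and 0.33.

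Ptgis encodes prostacyclin synthase. Its probe set 1448816_at read 4.41, 4.73 and 4.46 in stretched cells and 4.67, 4.77 and 4.52 in unstretched cells, which overlap. The difference was -0.12 log2 unit with an SE of 0.11 (95% interval -0.37 to 0.13, limma adjusted p = 0.565).

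**Figure D3:**
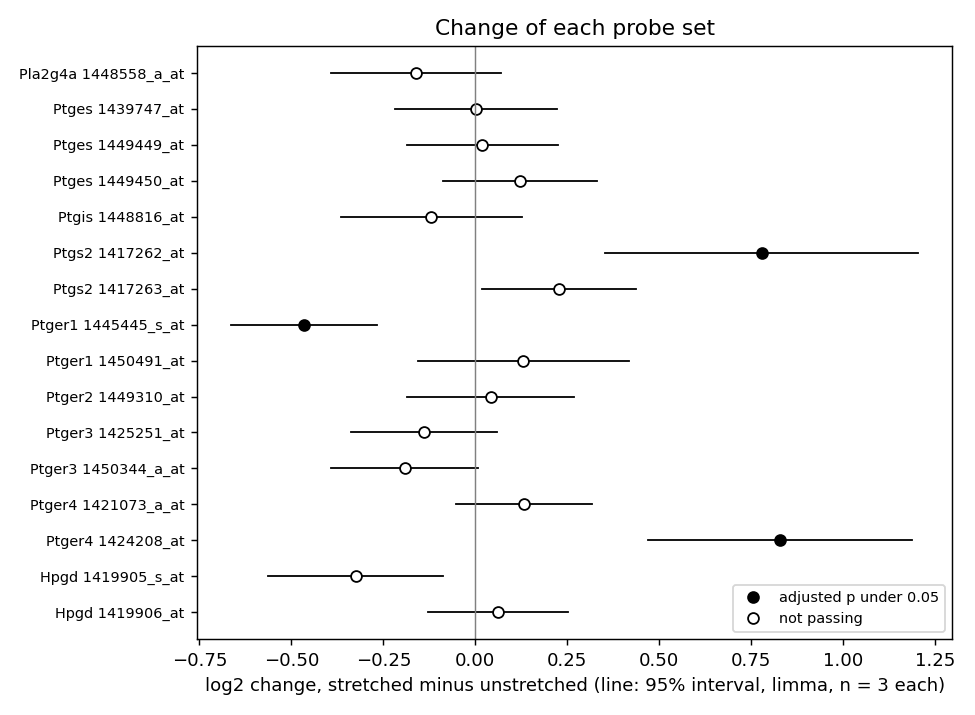
Log2 change of each probe set, stretched minus unstretched, with its 95% interval from limma (3 arrays in each group); filled circles passed the adjusted p threshold of 0.05. Ptger4 1424208_at (0.83) and Ptgs2 1417262_at (0.78) lie to the right of 0 and Ptger1 1445445_s_at (-0.47) to the left.

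Of the 4 receptors for prostaglandin E2, Ptger4 was the one called when each gene was read by its brightest probe set. That probe set, 1424208_at, read 5.88, 5.73 and 6.02 in stretched cells and 5.41, 4.69 and 5.05 in unstretched cells. Every stretched value exceeded every unstretched one, and the unstretched arrays were the more variable (SD 0.14 in stretched and 0.36 in unstretched cells, n = 3 each). The probe set rose by 0.83 on the log2 scale (SE 0.16, 95% interval 0.48 to 1.18, limma adjusted p = 0.00578 over all genes), a 1.78-fold higher value. In the fit of every probe set, which also gave the values of the other receptors, its adjusted p was 0.00954. Over genes, the adjusted p was 0.00172 to 0.0301 with each array left out in turn, while the log2 change ranged from 0.65 without unstretched replicate 2 to 1.01 without unstretched replicate 1. In the two-sided exact permutation test it had p = 0.1, the lowest possible with 3 arrays in each group.

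The other Ptger4 probe set, 1421073_a_at, was among the dimmest on the array, at percentile 3.11 in stretched and 1.13 in unstretched cells. It read 3.17, 3.28 and 3.26 in stretched cells and 3.06, 3.11 and 3.15 in unstretched cells, with no overlap but a change that did not pass (0.13, SE 0.08, adjusted p = 0.377). Its change was smaller than that of 1424208_at by 0.70 (SE 0.25, exact permutation p = 0.1). Averaging both probe sets gave a log2 change of 0.48 for the gene, which passed (limma adjusted p = 0.00884).

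Ptger2 encodes EP2, which like EP4 couples to the G protein that raises cyclic AMP. Its probe set 1449310_at read 3.71, 3.77 and 3.74 in stretched cells and 3.51, 3.73 and 3.85 in unstretched cells, so the groups overlapped. The difference was 0.04 log2 unit, its SE 0.10 and its 95% interval -0.18 to 0.27 (limma adjusted p = 0.850). The change of Ptger4 1424208_at exceeded that of Ptger2 by 0.79 (SE 0.30), that of Ptger3 1425251_at by 0.97 (SE 0.24) and that of Ptger1 1450491_at by 0.70 (SE 0.24). In each case the array-wise differences did not overlap between the groups, and the two-sided exact permutation p was 0.1 (0.133 adjusted over the 8 pairs of probe sets compared). Since 0.1 is the floor of this design, the test could not pass 0.05. Ptger4 was set against the others because it was the receptor called, and by its brighter probe set only. The lack of overlap therefore follows in part from that choice. The dimmer Ptger4 probe set, 1421073_a_at, changed by 0.13, as did Ptger1 1450491_at.

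The stretches before the transcription starts of Ptger4, of Ptger2, its closest partner in signalling, and of Ptgs2 are shown because Ptger4 is the gene that was called and the other two are its nearest partner and the gene whose probe sets disagreed on a call. They are the 250 bases upstream of the start in RefSeq, assembly GRCm38.p6, where 8 of the 10 genes had an entry. Capitals mark GC boxes, GGGCGG on either strand (the minus strand throughout in Ptger4), the only searched motif found in them.
Ptger4, chr15:5244188-5244437, minus strand: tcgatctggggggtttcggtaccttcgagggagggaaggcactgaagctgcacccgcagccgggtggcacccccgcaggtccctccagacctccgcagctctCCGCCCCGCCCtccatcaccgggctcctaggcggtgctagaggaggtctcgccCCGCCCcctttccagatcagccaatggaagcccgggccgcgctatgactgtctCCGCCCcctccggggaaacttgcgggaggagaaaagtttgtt
Ptgs2, chr1:150099781-150100030, plus strand: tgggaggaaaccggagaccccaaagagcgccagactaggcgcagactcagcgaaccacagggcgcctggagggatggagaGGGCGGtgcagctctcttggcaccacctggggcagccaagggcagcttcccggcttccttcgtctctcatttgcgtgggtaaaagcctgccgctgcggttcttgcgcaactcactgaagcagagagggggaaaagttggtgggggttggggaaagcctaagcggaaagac
Ptger2, chr14:44987861-44988110, plus strand: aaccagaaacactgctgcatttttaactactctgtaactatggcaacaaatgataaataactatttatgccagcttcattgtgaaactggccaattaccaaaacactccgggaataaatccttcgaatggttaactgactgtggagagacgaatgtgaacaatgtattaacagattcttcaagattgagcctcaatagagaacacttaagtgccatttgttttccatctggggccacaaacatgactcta
The Ptger4 stretch held 4 GC boxes, 2 of which overlap by 1 base, and was 66.8% G and C. The Ptgs2 stretch held 1 and was 61.6% G and C, and the Ptger2 stretch held 0 and was 38.0% G and C, against a median of 52.4% over 32851 promoters. Members that did not pass also held GC boxes: Ptger3 had 3 (62.0% G and C), Ptges 2 (59.6%) and Hpgd 1 (56.8%). Pla2g4a, which did not pass either, had 0, as did Ptgs1, whose expression was not analysed. A GC box occurred in 32.7% of all promoters. The cyclic AMP response element TGACGTCA (1.55% of promoters), its core TGACG (17.8%), the TATA box TATAAA (12.4%), the AP-1 site TGANTCA (6.75%), the E-box CACGTG (6.02%), the NF-kB site (0.140%) and the EGR site GCGTGGGCG (0.536%), each searched on both strands, were not found in these 3 windows. The core TGACG lies within TGACGTCA, so those searches are not independent. Bases after the annotated start and farther upstream were not searched, so a site there would have been missed.

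Ptger3 encodes EP3, the receptor that mainly lowers cyclic AMP. Its probe set 1425251_at read 3.79, 3.78 and 3.67 in stretched cells and 3.84, 3.82 and 3.99 in unstretched cells. Its probe set 1450344_a_at read 3.30, 3.46 and 3.36 in stretched cells and 3.59, 3.64 and 3.47 in unstretched cells. Neither overlapped between groups and neither passed, with log2 changes of -0.14 (SE 0.09, limma adjusted p = 0.381) and -0.19 (SE 0.09, adjusted p = 0.222). Their changes differed by 0.05 (SE 0.12, exact permutation p = 0.6).

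Ptger1 encodes EP1, and its probe sets disagreed. The probe set 1445445_s_at read 3.62, 3.57 and 3.65 in stretched cells and 4.09, 4.18 and 3.97 in unstretched cells, 2 tight groups that do not overlap. It fell by 0.47 on the log2 scale (SE 0.09, 95% interval -0.66 to -0.27, limma adjusted p = 0.00863), a 1.38-fold lower value, and its adjusted p was slightly below that of Ptger4 1424208_at in the same fit. The brighter 1450491_at read 4.93, 5.13 and 4.99 in stretched cells and 5.13, 4.90 and 4.61 in unstretched cells, and its log2 change was 0.13 (SE 0.13, adjusted p = 0.594). The changes differed by 0.60 (SE 0.15, exact permutation p = 0.1). The suffix _s_at marks probes shared between transcripts, so the source of that signal is uncertain.

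Hpgd encodes 15-hydroxyprostaglandin dehydrogenase, which begins the inactivation of prostaglandins. Its probe set 1419905_s_at read 3.25, 3.26 and 3.20 in stretched cells and 3.42, 3.78 and 3.47 in unstretched cells. The values did not overlap, but the change did not pass (-0.33, SE 0.11, limma adjusted p = 0.0833). With an intensity trend in the prior of the fit it passed (limma adjusted p = 0.0334). This probe set also carries the suffix _s_at, so the source of its signal is uncertain. The probe set 1419906_at read 3.84, 3.75 and 3.68 in stretched cells and 3.70, 3.74 and 3.66 in unstretched cells, with a log2 change of 0.06 (SE 0.09, adjusted p = 0.722). The change of 1419906_at exceeded that of 1419905_s_at by 0.39 (SE 0.10, exact permutation p = 0.1).

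Dim probe sets as a class leaned slightly downward on the stretched arrays, whose values were spread more widely (SD over all probe sets 2.08 to 2.10 on stretched and 2.03 to 2.06 on unstretched arrays). With all probe sets split into 10 equal groups by mean level, the median log2 change was -0.06 in the dimmest group. It was -0.05 in the next, which holds both Ptgs2 1417262_at and Ptger1 1445445_s_at, and -0.03 in the group that holds Ptger4 1424208_at. The beta-actin controls, which track RNA quality by the gap between 3′ and 5′ signal, gave gaps that did not overlap between the groups. The log2 gap was 1.30 ± 0.05 in stretched and 1.57 ± 0.03 in unstretched cells (SD, n = 3 each, exact permutation p = 0.1, the lowest possible). The Gapdh controls gave 0.16 ± 0.10 in stretched and 0.25 ± 0.07 in unstretched cells, which overlap (SD, n = 3 each, exact permutation p = 0.4). Their part in the changes of the prostaglandin genes was not tested. Of 11 podocyte markers measured, 1 rose and 2 fell, and 7 were above the median gene in both groups. These were Synpo, Podxl, Wt1, Podn, Nes, Cd2ap and Actn4. The slit diaphragm gene Nphs1 and the markers Lmx1b, Ptpro and Tcf21 were, in mean, below the median gene in both groups. Of 10 leukocyte markers, a cell class that can make prostaglandins, 2 were above it. Their mean log2 level was 5.28 to 5.36 on stretched and 5.44 to 5.51 on unstretched arrays, where 1 rose and 3 fell, and their part in these results was not tested.

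Beyond the 10 genes, 131 others of the pathway were measured in 8 lists, of which 16 rose and 14 fell in limma, 22.9%, against 14.7% of all genes. Their median log2 change was -0.01. By list, 42.1% of cAMP-responsive targets, 31.6% of release and reacylation genes, 28.6% of transport and breakdown genes and 25% of Ptgs2 regulators passed. The share was 17.1% for EP receptor coupling and 14.3% for other synthases. It was 11.1% for the lipoxygenase and epoxygenase branches and 0% for other receptors. Some genes stand in these lists for a role in other cells. The lists were not matched to all genes in signal level, so these shares do not measure enrichment. Genes above the median gene in both groups ran from 1 of 6 other receptors to 17 of 20 regulators of Ptgs2. With dim genes, those below the median gene, left out, 2718 genes passed, against 2681 of all 18193. Fewer genes were tested there, so the share passing among brighter genes was above 14.7%. The 14.7% is thus a low comparison for lists with many bright genes. Nor is it matched to the prostaglandin genes, most of which gave a low signal.

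**Figure D4:**
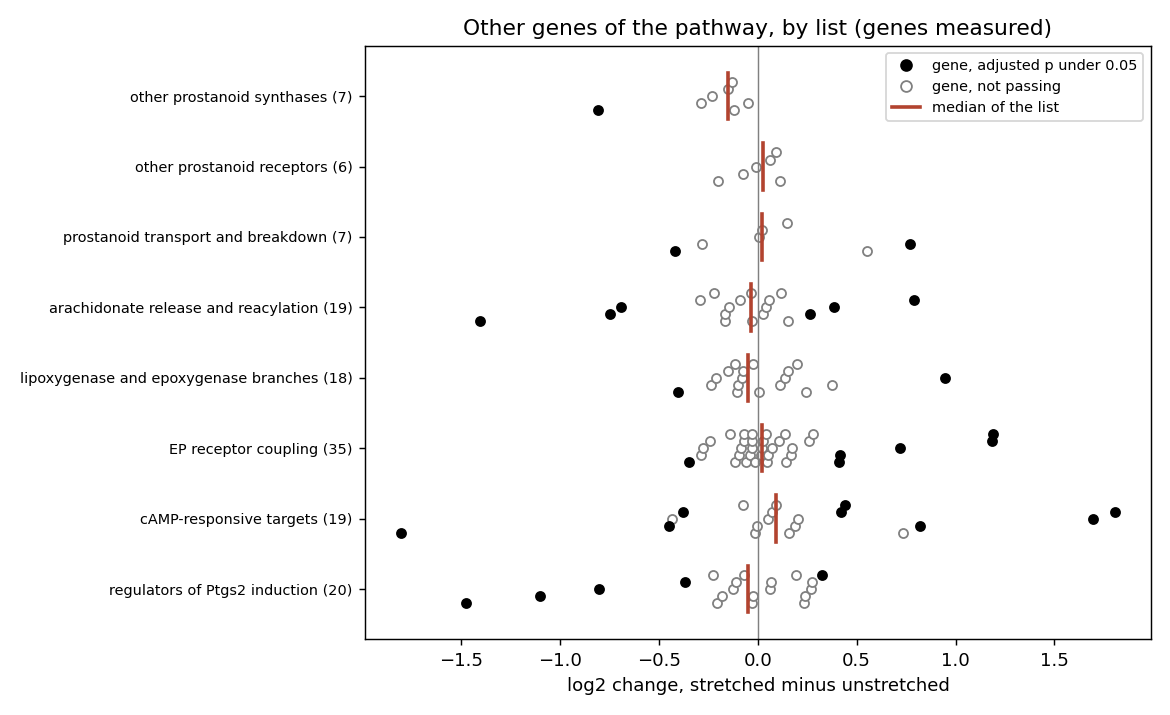
Log2 change of each gene in 8 lists of the wider pathway, stretched minus unstretched; filled points passed the adjusted p threshold of 0.05, and red bars are list medians. Crem (1.81) and Dusp1 (1.69) lie farthest to the right and Ppargc1a (-1.80) farthest to the left, all among the cAMP-responsive targets.

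Of 7 other prostanoid synthases, 0 rose and 1 fell. Ptgds, prostaglandin D synthase of the lipocalin type, read 6.75, 6.71 and 6.47 in stretched cells and 7.49, 7.48 and 7.38 in unstretched cells. It fell by 0.81 on the log2 scale (SE 0.10, limma adjusted p = 3.90e-04), and both of its probe sets passed in that direction. The list's median change was -0.15. Of 6 other receptor genes, for prostacyclin, prostaglandins D2 and F2 alpha and thromboxane, 0 passed in either direction; the largest moderated statistics were those of Ptgfrn (-0.20, SE 0.12, adjusted p = 0.304), a protein associated with the F2 alpha receptor, and Ptgdr (0.11, SE 0.08, adjusted p = 0.443).

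Of 7 genes of transport and breakdown, 1 rose and 1 fell. Ptgr1, a reductase that inactivates 15-keto prostaglandins and leukotriene B4, read 6.75, 6.96 and 7.02 in stretched cells and 6.25, 5.72 and 6.45 in unstretched cells, and rose by 0.77 (SE 0.16, limma adjusted p = 0.00997). Ptgr2, a second 15-keto prostaglandin reductase, fell by 0.42 (SE 0.08, adjusted p = 0.00790), but 1 of its 6 probe sets passed. The uptake carrier Slco2a1 had a log2 change of 0.01 and the export pump Abcc4 one of -0.28 (SE 0.12, adjusted p = 0.166).

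Of 19 genes of arachidonate release and reacylation, 3 rose and 3 fell, with a median change of -0.03. Mgll, which hydrolyses 2-arachidonoylglycerol and so frees arachidonate, read 7.94, 8.02 and 8.22 in stretched cells and 9.44, 9.27 and 9.67 in unstretched cells. It fell by 1.40 (SE 0.12, limma adjusted p = 5.20e-05), a 2.64-fold lower value. Of its 4 probe sets 3 fell. The secreted phospholipase gene Pla2g12a fell by 0.69 (SE 0.11), as did Pla2g7, a lipoprotein-associated phospholipase, by 0.75 (SE 0.12). Acsl4, which activates arachidonate for return to membranes, rose by 0.79 (SE 0.09) with all 3 of its probe sets. Anxa1, an annexin known to restrain phospholipase A2, rose by 0.39 (SE 0.08), and the phospholipase activator Plaa rose by 0.27 (SE 0.08) at an adjusted p of 0.04997 in the gene fit. In the fit of every probe set that probe set of Plaa did not pass (adjusted p = 0.0692), where 1 of its 4 probe sets did, and 1 of 2 probe sets of Anxa1 passed.

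In the lipoxygenase and epoxygenase branches, which compete for arachidonate, 1 of 18 genes rose and 1 fell. Mgst2, which can conjugate leukotriene A4 with glutathione, rose by 0.95 (SE 0.12), and Lta4h, the enzyme of leukotriene B4 synthesis, fell by 0.40 (SE 0.08) on the log2 scale in limma, with 1 of its 3 probe sets passing.

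Of 35 genes that couple EP receptors to their effectors, 5 rose and 1 fell, 17.1% in all. Pde4b, a phosphodiesterase that degrades cyclic AMP, read 8.47, 8.31 and 8.17 in stretched cells and 7.07, 7.19 and 7.11 in unstretched cells. It rose by 1.19 (SE 0.10, limma adjusted p = 4.84e-05), with 3 of 6 probe sets passing. Prkar2b, a regulatory subunit of protein kinase A, read 7.61, 6.92 and 7.56 in stretched cells and 6.25, 5.95 and 6.33 in unstretched cells and rose by 1.19 (SE 0.17), with all 3 probe sets passing. The receptor kinase gene Grk5 rose by 0.72 (SE 0.13), the kinase anchor Akap12 by 0.41 (SE 0.08) and the inhibitory G protein subunit Gnai2 by 0.41 (SE 0.08). Pde7a fell by 0.35 (SE 0.10) in the gene fit (adjusted p = 0.0357), but that probe set did not pass in the fit of every probe set (adjusted p = 0.0513), where 1 of its 7 probe sets did. Of the 2 probe sets of Grk5, 1 passed. Gnas, the stimulatory G protein subunit that EP2 and EP4 use, had a log2 change of -0.09 (SE 0.09, adjusted p = 0.605).

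Of 19 genes known to respond to cyclic AMP, 5 rose and 3 fell, with a median log2 change of 0.09. Many of them answer to other signals too. Crem, whose inducible product ICER represses cyclic AMP response elements, read 7.77, 7.37 and 7.32 in stretched cells and 5.66, 5.44 and 5.96 in unstretched cells. It rose by 1.81 (SE 0.15, limma adjusted p = 5.09e-05), a 3.50-fold higher value, and 2 of its 4 probe sets passed. Dusp1, a phosphatase of MAP kinases, read 11.50, 11.13 and 10.75 in stretched cells and 9.84, 9.41 and 9.04 in unstretched cells and rose by 1.69 (SE 0.21). The orphan nuclear receptor Nr4a1 rose by 0.82 (SE 0.09) and the transcriptional regulator Cited2 by 0.44 (SE 0.09). In Nr4a2, a relative of Nr4a1, the brightest probe set fell by 0.38 (SE 0.09), while 4 of its 6 probe sets rose, with log2 changes up to 1.71. Its place among the 3 genes that fell rests on that brightest probe set. Ppargc1a, which coactivates genes of mitochondrial biogenesis, fell by 1.80 on the log2 scale (SE 0.20), and all 5 of its probe sets passed. The log2 changes of Fos (-0.43, adjusted p = 0.130) and Fosb (-0.01, adjusted p = 0.976) did not pass.

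Of 20 genes known to induce or restrain Ptgs2, 1 rose and 4 fell, and the median was -0.05. The early transcription factors Egr1 (-1.47, SE 0.13) and Egr2 (-1.10, SE 0.10) both fell. Relb, a subunit of NF-kB, fell by 0.80 on the log2 scale (SE 0.09) and the glucocorticoid receptor Nr3c1 fell by 0.37 (SE 0.09), though 1 of the 6 probe sets of Nr3c1 passed. The interleukin-1 receptor Il1r1 rose by 0.32 (SE 0.09, limma adjusted p = 0.0337), with 1 of its 2 probe sets passing.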

How the data were processed

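The 10 members, the pathway lists and the tests were chosen with earlier results of these data known, so nothing here is an independent check of them. The deposited values are log2 expression, 1 per probe set and array, made by the authors with RMA per the submitters' processing notes; a version and a build were not given in the sources used here. All arrays had the same mean, 5.70, but medians of 4.92 to 4.98, so shifts of overall level are not visible; background handling can compress changes of dim probe sets. Of 45101 probe sets, 64 controls were left out. The platform annotation gave 1 symbol to 34945, several to 932 and did not list 9160; 34741 of the first matched RefSeq (GRCm38.p6). Groups came from sample titles.

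The fits used limma 3.58.1 in R 4.3.3 (lmFit, eBayes) with no covariate and no filter, over 18193 genes by the brightest probe set and over 45037 probe sets. Single values had two-sided exact permutation tests (scipy 1.17.1). The deviations of same-numbered arrays correlated at 0.02, 0.15 and 0.28, and 2 of the 3 stretched arrays were closest to their own number. Same-numbered arrays were not treated as pairs in the main fit, and a replicate block was fitted as an alternative. The fit was tested on simulated data. The text names the 10 members and, from each list, called genes (up to 6 by moderated statistic) or else the 2 highest, and the 5 genes most correlated with each called member. Slco2a1, Abcc4, Gnas, Fos and Fosb were named in addition, after their values were seen. So were the markers Podxl, Wt1, Cd2ap, Actn4, Nphs1, Lmx1b, Ptpro, Tcf21, Acta2, Cdh16 and Lrp2. Alternatives were a replicate block, each array left out, other scalings, a filter on dim features, a trended prior, a minimum change and other choices of probe set. List genes not measured were not analysed here. The 3 arrays per group limit the precision.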

Additional observations from a re-analysis of the deposited data

How the results depend on the processing

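The count of 1 called gene among the members remained 1 with each array left out (1 to 1) and under the 3 other scalings tried. It became 0 without dim genes, where Ptger4 falls below the median gene and is not tested, and 0 with a minimum change of 0.5 log2 unit. It became 2 with all probe sets of a gene averaged and 3 with every probe set tested. Of the members' probe sets 2 to 3 passed with 1 array left out, against 3 with all; 1 passed without dim probe sets, where 2 of the 16 were tested, and 0 with a minimum change of 0.5. The replicate block gave 1 member gene and 3 member probe sets, and 3102 (fixed) or 3283 (random) of all genes against 2681, so it moved none of these by over 1.5 times and changed no call among the members. The count over all genes was 142 with a minimum change of 0.5 and 1661 to 2639 with 1 array left out, lowest without stretched replicate 1, with 1750 without stretched replicate 3. Of the calls over all genes 54.2% were higher, against 42.7% after a repeated quantile normalization (1149 of 2693), 44.6% after cyclic loess and 61.8% after median centring. In the pathway lists 7 genes passed with a minimum change of 0.5, against 30, and 26 to 28 with 1 array left out. The count was higher with a replicate block (33 fixed, 34 random), an intensity trend in the prior (38) and every probe set tested (41). With probe sets averaged, Ptger1 had a log2 change of -0.17 and Hpgd one of -0.13, both opposite in sign to the brightest probe set and not passing. Small changes also turned sign with 1 array left out: Ptger1 (1450491_at) ranged from -0.0056 to 0.2557, Ptger2 (1449310_at) from -0.0524 to 0.1179, Ptges 1439747_at from -0.0649 to 0.0593 and Ptges 1449449_at from -0.0421 to 0.0626. The cause of these shifts was not tested. Signal over background is unknown, which limits every dim probe set.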

Other observations

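The genes whose values most resembled those of Ptger4 across the 6 arrays were Usp38, a deubiquitinase gene (Pearson r = 0.996), Zfp536 (0.992), Zfp664 (0.991), Ciao2a (0.991) and Eif2ak4, an amino acid sensing kinase (0.991), among 16273 genes compared. All 5 were higher in stretched than in unstretched cells in mean, by 0.29 to 0.57 on the log2 scale, and Zfp664 did not pass the threshold (limma adjusted p = 0.0593). The correlation runs over 6 arrays in 2 groups and is a description: 606 genes had an r above 0.9. Usp38 read 7.23, 7.16 and 7.27 in stretched cells and 6.97, 6.71 and 6.85 in unstretched cells. Like Ptger4, it was lowest in unstretched replicate 2 and highest among unstretched arrays in replicate 1. That order, and the shared direction of the 5 genes, follow largely from their choice by correlation with Ptger4.

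Of the podocyte markers Nes rose (0.57, SE 0.09), while Synpo (-0.45, SE 0.08) and Podn (-0.29, SE 0.09) fell. Of 8 endothelial markers 0 passed in limma, with Plvap (-0.28, adjusted p = 0.0977) and Tie1 (-0.13, adjusted p = 0.459) nearest to it. Of 9 mesangial and fibroblast markers 1 rose (Pdgfrb, 0.41) and 1 fell (Dcn, -1.50), and of 8 tubule markers 1 rose (Cubn, 0.49) and 0 fell. In that order, 1, 4 and 2 of these markers were above the median gene in both groups. The brightest were Acta2 (mean log2 level 13.50 in stretched and 13.35 in unstretched cells), Cdh16 (10.89 and 10.54) and Lrp2 (10.13 and 10.07). Of the podocyte markers, Actn4 (12.02 and 11.83) and Cd2ap (10.53 and 10.27) lay in that range. Synpo (7.98 and 8.42), Podxl (7.73 and 7.95) and Wt1 (6.85 and 6.60) were lower. Why was not tested. Of the leukocyte markers Cd14, a lipopolysaccharide coreceptor, rose by 0.81 (SE 0.10), while Cd68 (-0.89, SE 0.12), Csf1r (-0.50, SE 0.11) and Fcer1g (-0.49, SE 0.11) fell. No other probe set of Nes (3 in all), Synpo (2), Pdgfrb (2) or Dcn (2) passed. For Cubn (2) and Csf1r (3), 1 other probe set passed in the same direction. By list, 40.0% of leukocyte, 27.3% of podocyte and 22.2% of mesangial and fibroblast markers passed. The share was 12.5% for tubule and 0% for endothelial markers, against 14.7% of all genes.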
